A study of Danio rerio with 18 samples.

Results

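The 8 zebrafish genes apobb.1, mtp, apoa1a, apoa1b, apoa4b.1, apoa4b.3, tfa and fetub encode components of lipoprotein particles, their assembly factor or proteins carried in blood plasma. They were picked out by gene name among the 25193 genes of the deposited count table, and all 8 were found. In that table they are ENSDARG00000022767 (apobb.1), ENSDARG00000008637 (mtp), ENSDARG00000012076 (apoa1a), ENSDARG00000101324 (apoa1b), ENSDARG00000040298 (apoa4b.1), ENSDARG00000094929 (apoa4b.3), ENSDARG00000016771 (tfa) and ENSDARG00000053973 (fetub). The mtp row carries the symbol MTTP in the name table and was matched through an alias.

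The zebrafish embryo feeds on yolk lipid, which leaves the yolk as lipoprotein particles. Apolipoprotein B, the product of apobb.1, is the backbone of such a particle, and the microsomal triglyceride transfer protein encoded by mtp loads lipid onto it inside the endoplasmic reticulum. The smaller apolipoproteins A-I and A-IV (apoa1a, apoa1b, apoa4b.1 and apoa4b.3) can move between particles. In the early embryo these genes are known for expression in the yolk syncytial layer, a multinucleate sheet around the yolk, which also makes plasma proteins such as the iron carrier transferrin (tfa). Fetuin B (fetub) is, in mammals, a plasma protein made by the liver that inhibits metalloproteinases.

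RNA was sequenced from pooled embryos at 24 hours post fertilization (hpf), in 18 libraries that form 6 groups of 3, and every library came from transgene-positive embryos. AngioTag and RiboTag are lines whose ribosomes carry an HA tag. From knowledge of the study and not from the labels, the tagged protein is Rpl10a, expressed under a kdrl promoter, and so in endothelium, in AngioTag, and throughout the embryo in RiboTag. AngioTag IP and RiboTag IP are RNA pulled down with the tagged ribosomes by an HA antibody. Input RNA of each line forms the groups AngioTag input and RiboTag input. FACS sorted is RNA of GFP-positive endothelial cells of AngioTag embryos isolated by fluorescence-activated cell sorting. FACS total is labelled only as total RNA of AngioTag embryos within that experiment, and how those embryos were handled before RNA extraction is not given in the sources used here. Whether samples 1 to 3 of a group came from different embryo pools is not in the labels, so the p-values rest on a spread that may be technical. They also do not say which libraries were made by poly(A) selection and which by ribosomal RNA depletion.

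Each library held between 18.3 and 49.5 M counts (M, mega). All 18 endothelial markers measured passed the test as higher in AngioTag IP and in FACS sorted, and none did in RiboTag IP. Mitochondrially encoded genes held 0.272% ± 0.0217 of counts (SD, n = 3) in AngioTag IP and 0.139% ± 0.0276 in RiboTag IP, against 4.18% ± 0.393 and 4.2% ± 0.161 in their inputs. Of the counts of FACS sorted sample 2, 15.3% came from zgc:158463, as did 4.19% of those of AngioTag IP sample 1. The summed level of 8 erythroid markers in FACS sorted was 23121 CPM (counts scaled to a library of 1e6 counts) in sample 3 against 5274 and 4544 in samples 1 and 2. Markers written down for the yolk layer and endoderm were uneven in these whole-embryo pools. The homeobox gene mxtx2, a regulator of that layer, had at most 5 counts in any library, and hnf4a stood at 1.3 to 1.66 CPM in AngioTag input and 0.495 to 0.708 CPM in RiboTag input. The endoderm regulators gata5, gata6 and foxa3 averaged 8.2, 7.48 and 9.38 CPM in AngioTag input and 7.7, 8.07 and 12.8 CPM in RiboTag input. No library separates the yolk layer from the rest of the embryo, so the tissue named above is background.

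The 8 genes together held 0.376% ± 0.0507 of all counts (SD, n = 3) in AngioTag input and 0.319% ± 0.0382 in RiboTag input. Their share was 0.16% ± 0.0199 in AngioTag IP and 0.0859% ± 0.0224 in RiboTag IP. In FACS total it was 0.00185% ± 0.000632 and in FACS sorted 0.000662% ± 0.000439. The 6 groups thus fell into inputs, pull-downs and the cell sorting experiment, and no library of one of these 3 kinds overlapped a library of another in this share. No test is given for it, since the members were chosen with earlier results known. In bulk RNA, fewer cells of a type and less RNA per cell cannot be told apart.

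**Figure D1:**
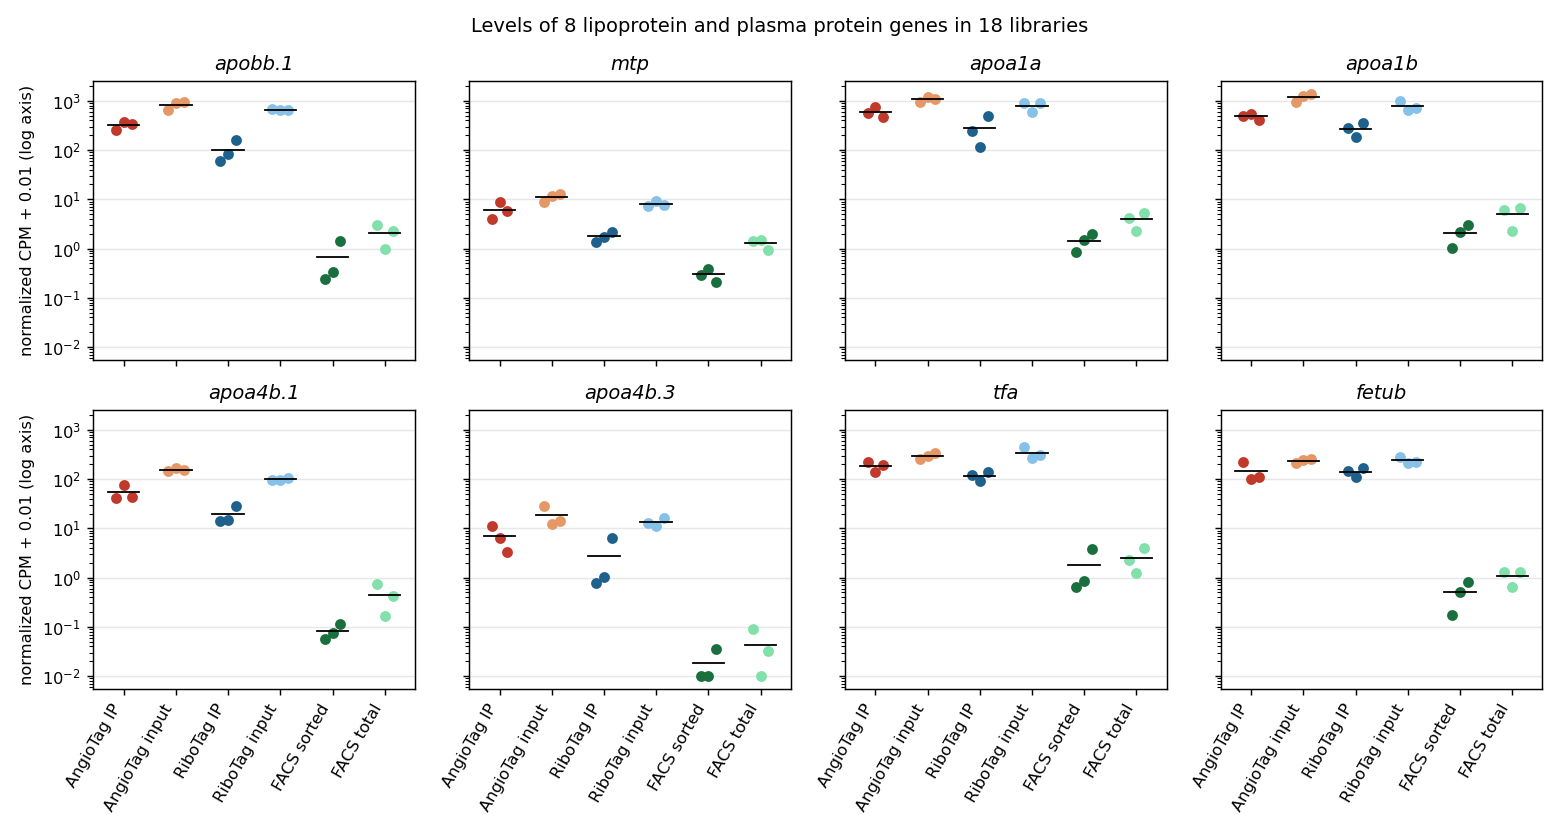
Normalized CPM plus 0.01 on a log axis for each of the 8 genes; each point is 1 library, each line the mean of a group of 3. In every gene the inputs are highest, and all genes except mtp are far lower in FACS sorted and FACS total than in the 4 lysate groups.

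Ordered by their mean level in CPM, scaled by the trimmed mean of M-values (TMM), all 8 genes had the inputs first, then AngioTag IP, RiboTag IP, FACS total and FACS sorted. AngioTag input stood above RiboTag input in all but tfa and fetub. The place of neighbours in that order was often not separated by the libraries. AngioTag IP and RiboTag IP overlapped for apoa1a, apoa4b.3, tfa and fetub, and FACS total and FACS sorted overlapped for apobb.1, apoa1b, apoa4b.3, tfa and fetub. RiboTag input and AngioTag IP overlapped for apoa1a and mtp, as did AngioTag input and AngioTag IP for fetub. RiboTag IP and FACS total did not overlap for 7 genes but did for mtp, whose means were 1.76 CPM and 1.28 CPM.

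FACS total against AngioTag input compares 2 whole-embryo references of the same line, made for 2 different experiments. All 8 genes were lower in FACS total, with all 3 libraries below all 3 input libraries. The scaffold gene apobb.1 stood at 3, 0.956 and 2.26 CPM in FACS total samples 1, 2 and 3, against 654, 906 and 931 CPM in AngioTag input. Its log2 fold change was -8.75 ± 0.51 (SE), a 430-fold difference, with an adjusted p of 2.79e-05 in edgeR's quasi-likelihood test. Of 19266 genes tested, only 7 had a lower log2 fold change.

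The A-I genes were close to this. Levels of apoa1a were 4.24, 2.28 and 5.3 CPM in FACS total against 949, 1186 and 1101 CPM in input, and those of apoa1b were 6.19, 2.26 and 6.79 CPM against 959, 1244 and 1394 CPM. Their log2 fold changes were -8.19 ± 0.43 and -7.98 ± 0.53. The A-IV gene apoa4b.1 stood at 0.729, 0.156 and 0.418 CPM against 148, 167 and 150 CPM, a log2 fold change of -8.58 ± 0.49. For apoa4b.3 the value of -9.06 ± 0.67 rests on 4, 0 and 1 counts in FACS total, against 959, 499 and 582 counts in input. The count of 0 in sample 2 allows up to 3 counts, or 0.0736 CPM without TMM scaling, and this limit covers counting error only. Counts of apoa4b.1 in FACS total were 37, 8 and 19. Both apoa4b.1 and apoa4b.3 passed the filter on low counts only through the input, where they were higher. That limits what their calls show.

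Among the plasma proteins, tfa stood at 2.23, 1.21 and 4 CPM in FACS total against 256, 289 and 340 CPM in input, a log2 fold change of -6.99 ± 0.49. Levels of fetub were 1.28, 0.624 and 1.32 CPM against 208, 246 and 257 CPM, a log2 fold change of -7.89 ± 0.37. The lipid transfer gene mtp differed least, with 1.42, 1.48 and 0.923 CPM against 8.72, 11.6 and 13.1 CPM. Its log2 fold change was -3.24 ± 0.28 (adjusted p = 0.000137), and it ranked 203 from the lowest, while the other 7 genes ranked between 5 and 36.

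The test called 21.2% of all genes tested lower and 25.2% higher in this comparison, so a lower call alone was common, and 26.1% had no overlap in this direction. The size was not: the median log2 fold change was -8.09 over the 8 genes and -0.02 over all genes. Only 62 genes, or 0.322% of those tested, lay below -6, and 7 of these were among the 8. The tail was not particular to the 8. Below -6 were also 5 of 10 other apolipoprotein genes and 9 of 26 plasma and yolk protein genes. So were 1 of 18 assembly and secretion genes and 1 of 15 uptake and remodelling genes. The 8 calls held under each alternative setting and without any single library, except that the rows were 6 after near-identical copies were summed, and all 6 were lower.

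**Figure D2:**
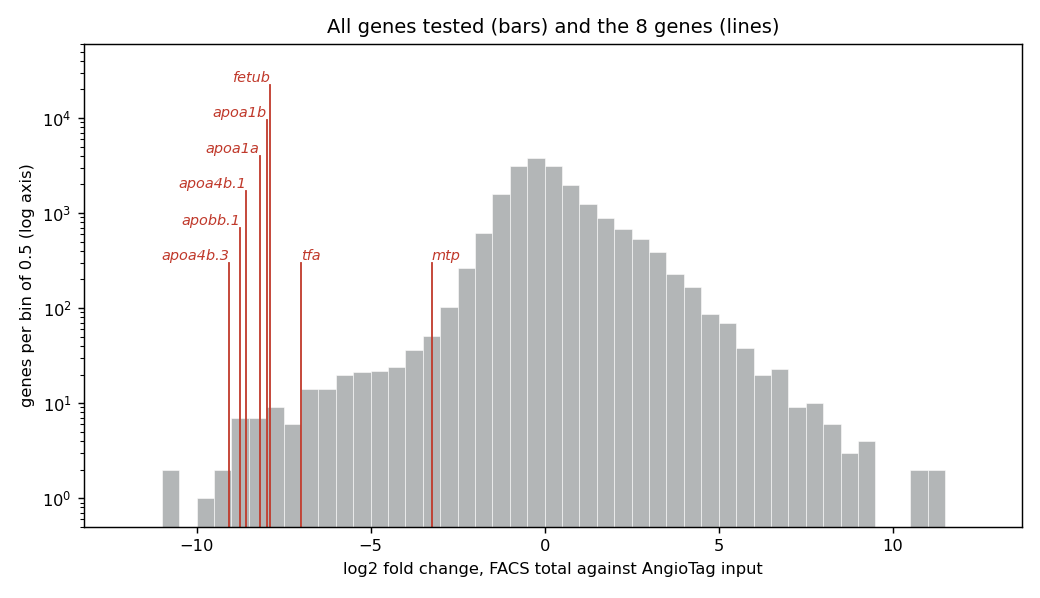
Histogram of log2 fold changes of FACS total against AngioTag input for 19266 genes in bins of 0.5, with the number of genes on a log axis; the height of the labelled lines has no meaning. Apart from mtp at -3.24, the genes lie between -9.06 and -6.99, in the sparse lower tail.

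Other genes of lipid transport gave the following counts. Of 10 other apolipoprotein genes tested, 9 were called lower in FACS total and none higher, with a median log2 fold change of -6.83. Within this list apoa2, the apolipoprotein A-II gene, gave -7.76 ± 0.55 and apoa4b.2 gave -8.55 ± 0.58. With 19, 5 and 32 counts in FACS total, apoa4b.2 also passed the filter only through the input. The receptor ligand gene apoeb fell by less, with 138, 104 and 252 CPM in FACS total against 1194, 1146 and 1161 CPM in input and a log2 fold change of -2.91 ± 0.36, and apoc1 gave -2.35 ± 0.46. Of 26 plasma and yolk protein genes, 20 were lower and 3 higher, with a median of -5.24. The gene fth1a gave -0.34 ± 0.32 (adjusted p = 0.4, edgeR), and the retinol carrier gene rbp4 gave -2.76 ± 0.22. The transferrin receptor genes tfr1a and tfr1b, which take iron up into cells, rose by 4.29 ± 0.35 and 0.71 ± 0.21. Both stand in the plasma and yolk list and among its 3 higher genes, though they act in the cell.

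Genes that act in the cell rather than in the particle had calls in both directions, as did all genes tested. Of 18 assembly and secretion genes, 8 were lower and 5 higher, with a median of -0.50. The fatty acid binding gene fabp2 fell by 5.74 (SE 0.26), whereas p4hb, which encodes the partner subunit of the transfer protein, gave -0.49 ± 0.28 (adjusted p = 0.181) and sar1b, a GTPase of secretory vesicles, -0.51 ± 0.19 (adjusted p = 0.0518). Of 15 uptake and remodelling genes, 4 were lower and 6 higher. Of 17 transcription factors of the yolk layer and endoderm, 7 were lower and 4 higher, with a median of -0.45 and none below -6. Among the lower ones, gata5 gave -2.78 ± 0.31, gata6 -1.83 ± 0.23 and hnf4a -1.81 ± 0.33. Among the higher ones, cebpb gave 2.90 ± 0.32 and creb3l3l 1.57 ± 0.18, and foxa3 was not called (-0.45 ± 0.21). Of 12 mitochondrially encoded genes, 9 were lower, with a median of -1.09, and of 6 skeletal muscle markers 5 were lower, with a median of -1.95. Their part in the result was not tested, and the handling of the embryos, the library method and the experiment cannot be told apart.

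The AngioTag pull-down was set against its input to find the messages that endothelial ribosomes carry more or less of than the whole embryo, and this comparison shares its input libraries with the comparison above. Of the 8 genes 5 fell, and none rose: apobb.1, apoa1a, apoa1b, apoa4b.1 and apoa4b.3. The test called 11.9% of all genes lower and 12.1% higher, and the median log2 fold change was -1.11 over the 8 and -0.03 over all genes tested. With upper-quartile scaling the all-gene median shifted by -0.20, and 3078 genes were called lower and 1461 higher in place of 2130 and 2170.

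Levels of apobb.1 were 257, 370 and 341 CPM in AngioTag IP against 654, 906 and 931 CPM in input, so that every pull-down library lay below every input library. Its log2 fold change was -1.38 ± 0.21 (adjusted p = 0.00253, edgeR), a 2.6-fold difference. For apoa4b.1 the levels were 41.7, 76.7 and 42.4 CPM against 148, 167 and 150 CPM, and the log2 fold change of -1.55 ± 0.25 was the furthest from 0 of the 8. The A-I gene apoa1b gave -1.33 ± 0.20 (adjusted p = 0.00213), with 491, 540 and 416 CPM in the pull-down. Its paralog apoa1a gave -0.89 ± 0.21 (adjusted p = 0.0155), with 559, 743 and 463 CPM. The change of apoa4b.3, -1.43 ± 0.45, passed narrowly (adjusted p = 0.0484), with 11.2, 6.27 and 3.34 CPM in the pull-down against 28.4, 12.2 and 14.2 CPM.

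The other 3 genes did not pass. For tfa the pull-down held 227, 137 and 192 CPM against 256, 289 and 340 CPM, a log2 fold change of -0.68 ± 0.22 (adjusted p = 0.0529). For mtp the levels were 3.9, 8.91 and 5.73 CPM against 8.72, 11.6 and 13.1 CPM, and the value was -0.86 ± 0.31 (adjusted p = 0.0708). The highest pull-down library of mtp, sample 2, overlapped the inputs. For fetub, sample 1 stood apart at 222 CPM, above the lowest input library, while samples 2 and 3 were at 98.6 and 110 CPM; the value was -0.74 ± 0.30 (adjusted p = 0.103) with sample 1 and -1.20 (adjusted p = 0.000607) without it.

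Same-numbered libraries deviated together here, though the labels do not say that they are pairs. With the number as a replicate block 7 of 8 genes were called, mtp (adjusted p = 0.0185) and tfa (adjusted p = 0.0365) among them. DESeq2 and upper-quartile scaling also called 7, with mtp and tfa added, and median-of-ratios scaling called 4, without apoa4b.3 (adjusted p = 0.0524). With all 18 libraries in 1 fit 2 were called, apoa1b and apoa4b.1. Over all genes, the block called 2552 lower and 2352 higher, and DESeq2 2745 and 2746, in place of 2130 and 2170. With all 18 libraries these counts were 1573 and 1553. Leaving out single libraries gave between 3 and 7 calls. There were 3 without AngioTag IP sample 3 or without input sample 2 or 3, and 7 without AngioTag IP sample 1. Here and in the comparisons below, counts with a library left out stand without the share of all genes called in that fit. They describe only the dependence on single libraries. In all, 6 of the 8 genes had no overlap in this direction, against 23.6% of all genes.

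In the same comparison 5 of 10 other apolipoprotein genes fell and none rose, apoeb among them (-1.01 ± 0.18, adjusted p = 0.0051). Of 26 plasma and yolk protein genes 9 fell and 1 rose, and of 19 assembly and secretion genes 6 fell and none rose. Of 13 uptake and remodelling genes 3 fell and 1 rose, and of 8 erythroid markers 4 rose. Of 6 skeletal muscle markers 4 fell, actc1b among them (-1.15 ± 0.20). The other 2 rose, myhz1.1 by 1.33 ± 0.32 (adjusted p = 0.0181, edgeR) and myhz1.2 by 1.27 ± 0.30. A fall was also seen outside lipid transport: of 14 secreted products of other tissues 5 fell and none rose, with a median of -0.56. Of 18 transcription factors 6 rose and 1 fell. Among them gata5 and gata6, regulators of endoderm and heart, rose by 1.48 ± 0.26 and 0.80 ± 0.24. The endoderm regulator foxa3 was the 1 that fell, at -0.72 ± 0.22 (adjusted p = 0.0448, edgeR). The value of hnf4a was also below 0, at -1.10 ± 0.80, without a call (adjusted p = 0.349). All 12 mitochondrially encoded genes tested fell, with a median of -3.85, and their part in the result was not tested.

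In the RiboTag line, taken as tagged throughout the embryo, the pull-down against its input sets ribosome-bound RNA beside input RNA. How far the tag reached each tissue, the yolk layer included, was not tested. Here 4 of the 8 genes fell, apobb.1, mtp, apoa4b.1 and tfa, where the test called 0.496% of all genes lower and 0.7% higher. The median log2 fold change was -1.83 over the 8 and -0.05 over all genes. All 8 genes had every pull-down library below every input library, which held for 14.7% of all genes.

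For apobb.1 the RiboTag IP samples held 59.9, 82.5 and 163 CPM against 673, 647 and 657 CPM in input, a log2 fold change of -2.65 ± 0.37 (adjusted p = 0.0227, edgeR). Only 0.96% of the genes tested lay at or below that value. For mtp the levels were 1.36, 1.71 and 2.2 CPM against 7.2, 9.36 and 7.56 CPM, and the value was -2.15 ± 0.30 (adjusted p = 0.0238). The scaffold and its lipid loading factor thus both fell more than 4-fold. For apoa4b.1 the levels were 14.3, 14.6 and 28.5 CPM against 94.9, 95.2 and 105 CPM, with -2.32 ± 0.30 (adjusted p = 0.0191). For tfa they were 120, 89.7 and 141 CPM against 445, 269 and 308 CPM, with -1.50 ± 0.28 (adjusted p = 0.0444). Sample 3 was the highest of the 3 pull-down libraries for all 8 genes.

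The 4 genes without a call had values of -1.50 ± 0.31 for apoa1b (adjusted p = 0.0599), -2.29 ± 0.70 for apoa4b.3 (adjusted p = 0.142), -0.74 ± 0.24 for fetub (adjusted p = 0.155) and -1.43 ± 0.48 for apoa1a (adjusted p = 0.167). The pull-down libraries of apoa1a and apoa4b.3 were widely spread: apoa1a stood at 242, 117 and 502 CPM against 914, 583 and 883 CPM in input, and apoa4b.3 at 0.754, 1.04 and 6.26 CPM against 12.7, 11.3 and 15.9 CPM. The levels of fetub were 146, 111 and 166 CPM against 286, 215 and 226 CPM, the smallest difference of the 8.

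Same-numbered libraries deviated together in this line too. The replicate block called all 8 genes lower, fetub with an adjusted p of 0.0232 and apoa1a with 0.00316. It also called 1268 genes of the whole table lower in place of 90. The unblocked calls depended on single libraries: none of the 8 was called without RiboTag IP sample 1 or without any of the 3 input samples, 5 were called without RiboTag IP sample 2 and 7 without sample 3. The share of all genes called in these fits is not given, so a larger count is not read as a result about the 8. Of 12 mitochondrially encoded genes 11 fell, with a median of -4.70, and their part in the result was not tested.

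Among the related genes, 1 of 10 other apolipoprotein genes fell, apoa4b.2 (-2.08 ± 0.37, adjusted p = 0.0406), with a median of -2.04 over the list. Of 25 plasma and yolk protein genes 8 fell and none rose, with a median of -1.57. The assembly and secretion genes had a median of -0.19, with 2 of 19 lower, and p4hb and sar1b stood at 0.83 ± 0.31 and 0.87 ± 0.27, neither of them past the threshold (adjusted p = 0.206 and 0.148). Of 14 secreted products of other tissues, none fell and 1 rose, the collagen gene col1a2 (1.38 ± 0.24, adjusted p = 0.0372).

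**Figure D3:**
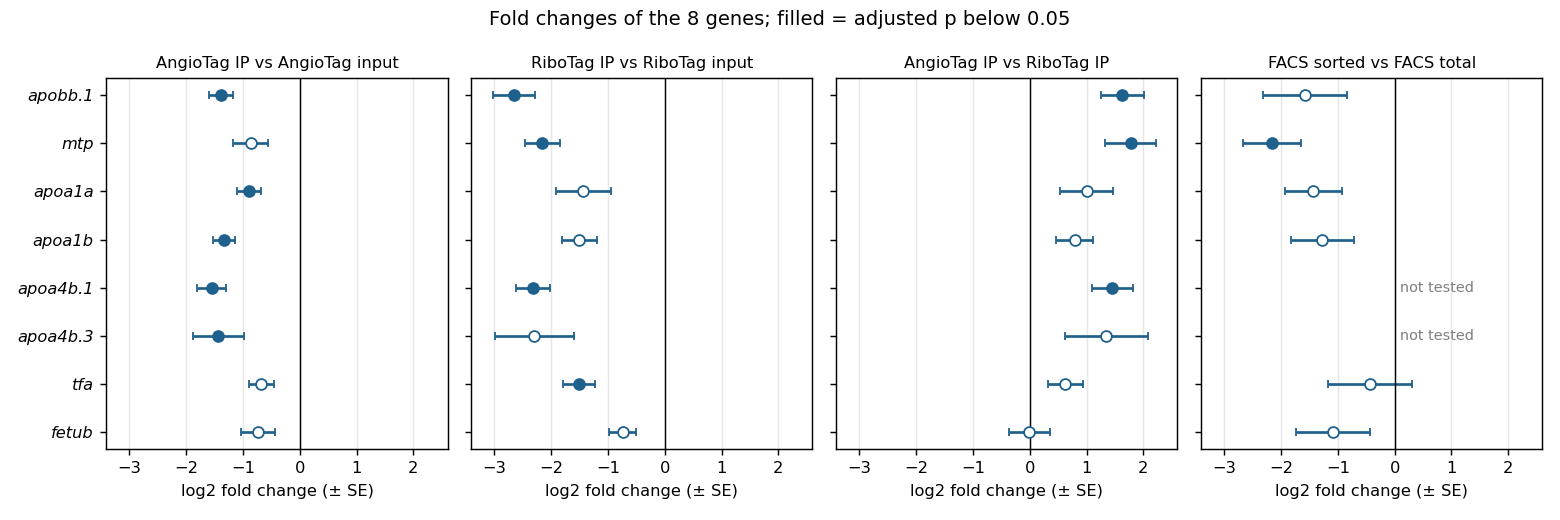
Log2 fold change with its standard error for the 8 genes in 4 comparisons, each with 3 libraries a group; filled points passed an adjusted p of 0.05 in edgeR. All values lie below 0 in both pull-downs, between -2.65 and -0.68, and 7 lie above 0 between the pull-downs.

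Set directly against each other, AngioTag IP held more of 3 genes than RiboTag IP: mtp, apobb.1 and apoa4b.1. For mtp the levels were 3.9, 8.91 and 5.73 CPM in AngioTag IP and 1.36, 1.71 and 2.2 CPM in RiboTag IP, a log2 fold change of 1.78 ± 0.45 (adjusted p = 0.0192, edgeR). For apobb.1 it was 1.63 ± 0.38 (adjusted p = 0.0133), with 257 CPM in the lowest AngioTag library against 163 CPM in the highest RiboTag library. For apoa4b.1 it was 1.45 ± 0.36 (adjusted p = 0.0172). The test called 9.86% of all genes higher and 8.76% lower in AngioTag IP; with upper-quartile scaling the all-gene median shifted by -0.14, with 1989 genes lower and 1419 higher in place of 1498 and 1685, and kept 3 calls among the 8.

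The plasma protein genes did not pass: tfa gave 0.63 ± 0.31 (adjusted p = 0.177) and fetub -0.01 ± 0.36 (adjusted p = 0.99). Neither did apoa4b.3 (1.35 ± 0.73), apoa1a (1.00 ± 0.46) or apoa1b (0.79 ± 0.33). None of the 8 was called without RiboTag IP sample 1, 1 without AngioTag IP sample 2, 2 without AngioTag IP sample 3 and 5 without RiboTag IP sample 3. In this comparison 7 of 10 other apolipoprotein genes and 14 of 26 plasma and yolk protein genes were higher in AngioTag IP and none was lower.

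The difference between the 2 enrichments, AngioTag minus RiboTag, was tested as an interaction, and it passed for none of the 8 genes in edgeR. The values were 1.27 ± 0.44 for mtp (adjusted p = 0.0953), 1.26 ± 0.43 for apobb.1 (adjusted p = 0.0954) and 0.80 ± 0.36 for tfa (adjusted p = 0.21), the 3 genes with an unadjusted p under 0.05. For fetub the value was -0.03 ± 0.40. The test called 7.99% of all genes in either direction. With the replicate block apobb.1 (adjusted p = 0.00993) and mtp (adjusted p = 0.0327) passed, as both did in DESeq2, and 3 genes passed without RiboTag IP sample 3.

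Ratios of counts within a library do not depend on its scaling, and some of them are given as a description, chosen after the values were seen. Counts of apobb.1 per count of fetub were 2.36, 3.01 and 2.9 in RiboTag input and 0.411, 0.74 and 0.982 in RiboTag IP. In AngioTag input the ratio was 3.14, 3.68 and 3.63, and in AngioTag IP 1.16, 3.75 and 3.1, so that samples 2 and 3 of that pull-down lay within or near the range of the input and sample 1 below it. Counts of tfa per fetub were 0.822, 0.804 and 0.848 in RiboTag IP against 1.56, 1.26 and 1.36 in its input. Counts of apoa4b.1 per fetub were 0.0982, 0.13 and 0.171 against 0.332, 0.444 and 0.464. In RiboTag embryos these 3 ratios were thus lower in every pull-down library than in every input library.

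**Figure D4:**
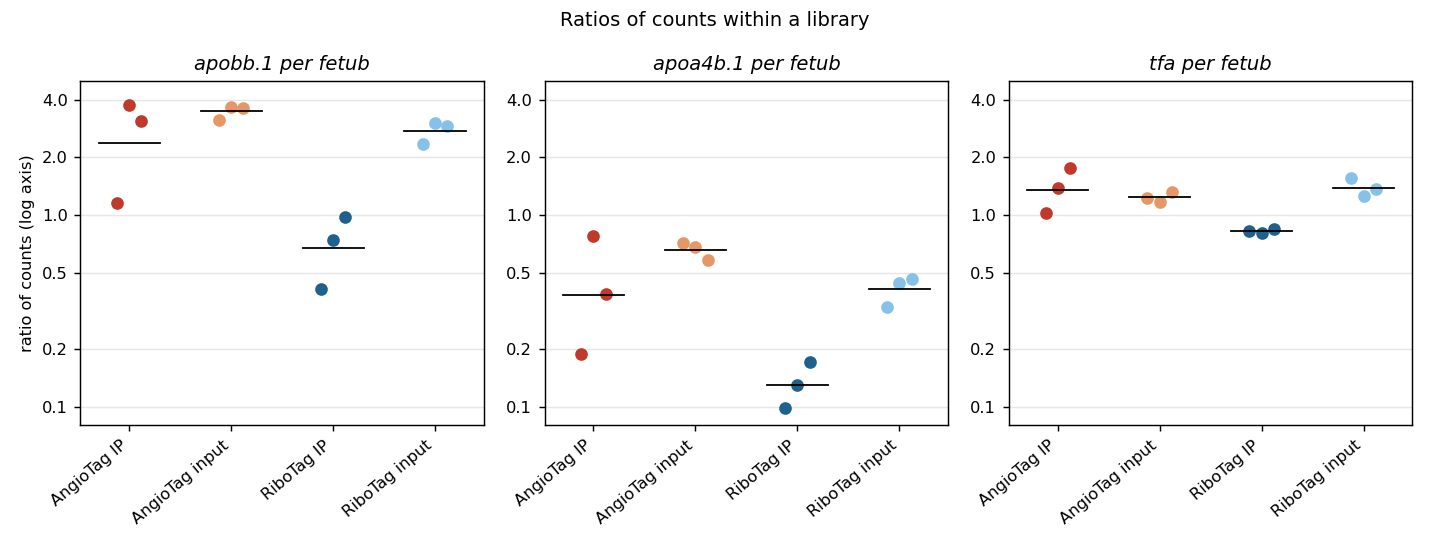
Ratio of counts of apobb.1, apoa4b.1 and tfa to counts of fetub within each library, on a log axis; points are libraries and lines are means of log2 ratios. The 3 RiboTag IP points lie below all RiboTag input points in each panel, and AngioTag IP overlaps its input in each.

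FACS sorted against FACS total asks which transcripts sorted endothelial cells hold relative to the embryo. The 8 genes were scarce in both groups, and 6 of them passed the filter on low counts; apoa4b.1 and apoa4b.3 did not. Only mtp was called lower, with 0.281, 0.384 and 0.203 CPM in sorted cells against 1.42, 1.48 and 0.923 CPM, a log2 fold change of -2.16 ± 0.51 (adjusted p = 0.013, edgeR). These levels rest on 12, 6 and 8 counts against 72, 76 and 42. Only in FACS total did all 3 libraries reach the level the filter asks for. The gene mtp thus entered the test through the group where it was higher, which limits what its call shows. The test called 14.8% of all genes lower; with upper-quartile scaling the all-gene median shifted by -0.21, with 3657 genes lower and 2199 higher in place of 2868 and 2678, and 2 of the 8 were called, apoa1a and mtp.

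The other genes tested had values below 0 without a call. Of these, apobb.1 and fetub also reached the level of the filter in all 3 libraries only in FACS total. They too entered the test through the group where they were higher, which limits what their values show. Counts of apobb.1 were 10, 5 and 55 in sorted cells against 152, 49 and 103 in FACS total, with a log2 fold change of -1.58 ± 0.74 (adjusted p = 0.143). Counts of apoa1a were 36, 23 and 78 against 215, 117 and 241, with -1.43 ± 0.50 (adjusted p = 0.0593), and its levels in CPM did not overlap. For apoa1b the value was -1.27 ± 0.55 (adjusted p = 0.118), for fetub -1.08 ± 0.65 (adjusted p = 0.254) and for tfa -0.44 ± 0.74 (adjusted p = 0.698). Sorted sample 3 held the most counts of 7 of the 8 genes, 150 of the 190 counts of tfa in this group among them, and it is the library with the high erythroid markers; the part of those cells in the result was not tested. Without it apobb.1 was called (adjusted p = 0.0197), and without FACS sorted sample 1 or FACS total sample 1 or 2 the call of mtp was lost (adjusted p = 0.0587, 0.0641 and 0.0519). The limit given above holds for the call of apobb.1 too. Without FACS total sample 2 apoa4b.1 entered the test and was called, at -2.93 (adjusted p = 0.0354). It passed the filter there only through FACS total, the group where it was higher. That call is therefore no support for a fall in sorted cells. The related lists did not share one direction here. Of 24 plasma and yolk protein genes 1 was lower and 5 higher, and of 5 other apolipoprotein genes 1 was lower and 1 higher. The transferrin receptor gene tfr1a, which stands in the plasma and yolk list, was among its higher genes (3.17 ± 1.00), with overlapping libraries. Of 21 transcription factors of the yolk layer and endoderm 3 were lower and 9 higher. Higher ones included gata5 (2.43 ± 0.37) and gata6 (1.72 ± 0.47). Among the lower ones was hnf4a (-2.13 ± 0.67), on 1 to 7 counts in a sorted library, and foxa3 was not called. Like mtp, hnf4a entered the test only through FACS total, the group where it was higher, which limits what its call shows. Of 14 secreted products of other tissues 9 were lower and none higher, with a median of -1.39. Of all 19326 genes tested, 2868 were lower and 2678 higher.

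The filtered-out genes were almost absent. Counts of apoa4b.1 were 2, 1 and 4 in sorted cells against 37, 8 and 19, and apoa4b.3 had 0, 0 and 1 against 4, 0 and 1. The counts of 0 of apoa4b.3 in sorted samples 1 and 2 allow up to 0.0727 and 0.164 CPM without TMM scaling. The difference between the sorting and the AngioTag enrichment was tested in a fit over 12 libraries, and edgeR and DESeq2 called none of the 8 genes. Of these, apoa4b.1 and apoa4b.3 passed the filter there only through the AngioTag libraries, so their lack of a call says nothing about sorting. In edgeR 1 unadjusted p was under 0.05, that of mtp (-1.32 ± 0.54, adjusted p = 0.138). Of all genes, 8.12% were called there in either direction. In that contrast median-of-ratios scaling shifted the all-gene median by 0.16, with 409 genes lower and 1371 higher in place of 605 and 1031.

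The inputs of both lines, taken at the same stage, differed for 1 of the 8 genes, where the test called 0.818% of all genes lower in RiboTag input. Levels of apoa4b.1 were 94.9, 95.2 and 105 CPM in RiboTag input against 148, 167 and 150 CPM in AngioTag input, a log2 fold change of -0.68 ± 0.12 (adjusted p = 0.0328, edgeR). The call was lost without AngioTag input sample 2 or 3 (adjusted p = 0.142 and 0.138), without RiboTag input sample 1 (adjusted p = 0.148), and when apoa4b.1 was summed with apoa4b.2 and apoa4b.3 (adjusted p = 0.107). The other lipoprotein genes had values from -0.62 to -0.36, and tfa and fetub 0.19 ± 0.20 and 0.01 ± 0.16.

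Across the 18 libraries the 8 genes varied together, largely along the groups. The median Pearson r over their 28 pairs, on log2(CPM + 1), was 0.965 over all 18 libraries, 0.867 over the 12 libraries of inputs and pull-downs and 0.385 over the 6 inputs. These values are descriptions, since libraries of a group share a preparation. In the 6 inputs the closest pair was tfa with fetub (0.928) and the most distant apoa4b.3 with fetub (-0.504). Among 8772 other genes with a mean of at least 10 CPM, 5 had the pattern most like the mean pattern of the 8. They were apoa4b.2 (r = 0.996), apoa2 (0.995), the complement gene c3a.1 (0.994), the fibrinogen alpha chain gene fga (0.994) and afp4 (0.992). These 5 were chosen on the same 18 libraries, so their direction in the comparisons above is set by the choice.

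Several of the 8 have paralogs by name, and their single values are taken as less certain. Likeness of sequence was not measured, and the copies summed as near-identical were grouped by gene name. A splitting of shared reads would concern apoa1a with apoa1b, apobb.1 with apobb.2, and apoa4b.1, apoa4b.3 and apoa4b.2, which are close neighbours on chromosome 16 of the RefSeq assembly GRCz12tu, next to apoeb. Counts of apoa1a per apoa1b ran from 1.11 to 1.38 in AngioTag IP and from 0.79 to 0.99 in its input. Counts of apoa4b.3 per apoa4b.1 were 0.191 in sample 1 of AngioTag input against 0.0731 and 0.0947 in samples 2 and 3, and 0.27 in sample 1 of AngioTag IP against 0.0818 and 0.0788. Sample 1 thus had more apoa4b.3 per apoa4b.1 in both AngioTag groups.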

How the data were processed

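The authors deposited raw counts per Ensembl gene in 1 table of 25193 genes and 18 libraries, with no normalization per the file. STAR 2.4.2a, RSEM 1.2.22, DESeq2 and genome build GRCz10 are named in the submitters' processing notes, without the role of each. The library kit keeps strand, per the labels' protocols, and the annotation and the use of strand in counting are not given in the sources used here. If the counts are RSEM estimates, reads shared by near-identical copies can be split between them. A RefSeq table of another build (GRCz12tu) was used for names and neighbours only.

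For each comparison edgeR 4.0.16 (R 4.3.3) fitted a quasi-likelihood model to the counts of its groups, after filterByExpr (minimum count 10, minimum total 15) and TMM scaling. Benjamini-Hochberg adjustment ran over all genes tested, with 0.05 as threshold. Standard errors follow from the F statistic, as the size of the log2 fold change over the root of F. Levels are CPM scaled with TMM factors over 18 libraries and 20517 genes. The same steps were also run on counts simulated with the fitted dispersions. That outcome is not given here, and no result above rests on it. Replicates of a group differed by more than counting error, with a chi-square per degree of freedom of 17.4 to 535. Limits for counts of 0 use 3 counts and cover counting error only.

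Same-numbered libraries deviated together from their group means in AngioTag IP and input (r = 0.480, 0.233 and 0.274 for samples 1 to 3). They also did so in RiboTag IP and input (0.350, 0.759 and 0.551) and in the 2 pull-downs (0.243, 0.278 and 0.207). All lay above a cut of 0.1, and only on this basis were the numbers taken as a pairing. Of the AngioTag IP samples, 2 of 3 matched the input of their own number best. The labels give the numbers but not what they mark.

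The 8 genes, 10 lists of related genes and markers and the tests were chosen with earlier results of these data known. Of 205 list entries, 173 matched the table. Genes named from the lists are up to 4 per list with the highest mean CPM; gata5, gata6, foxa3, hnf4a and mxtx2 are among the yolk layer and endoderm markers. The genes most alike are the 5 with a symbol and a mean of at least 10 CPM that have the highest Pearson r with the mean standardized log2(CPM + 1) of the 8. Alternatives were median-of-ratios and upper-quartile scaling, DESeq2 1.42.0, no filter and a filter of 1 CPM in 3 libraries, all 18 libraries in 1 fit, the replicate block, near-identical copies summed, another denominator for the shares and each library left out.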

Additional observations from a re-analysis of the deposited data

How the results depend on the processing

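Of 947 values of single genes under an alternative, 809 kept their direction and their side of the threshold, 44 lost the call, 43 gained one and 51 changed sign. The cause of these changes was not tested. Counts with a library left out are given without the share of all genes called in the same fit, and describe only the dependence on single libraries. In AngioTag IP against its input, 7 genes were lower with DESeq2, upper-quartile scaling or the replicate block, 6 with either other filter, 4 with median-of-ratios scaling, 2 with all 18 libraries in 1 fit, 3 with near-identical copies summed (6 rows in place of 8), and 3 to 7 with a library left out. In RiboTag IP against its input, 8 were lower with DESeq2 and with the replicate block, and 0 to 7 with a library left out. Between the pull-downs, 4 were higher with DESeq2, and 0 to 5 were higher with a library left out. The enrichment difference of AngioTag and RiboTag gave 2 higher genes with DESeq2, 2 with the replicate block and 0 to 3 with a library left out. In FACS sorted, 2 genes were lower with DESeq2, 2 with upper-quartile scaling, 5 with all 18 libraries, 0 with a filter of 1 CPM, which left mtp untested, and 0 to 2 with a library left out. With all 18 libraries apoa4b.1 was among those called, but it passed the filter there only through other groups. Between the inputs, 2 were lower with DESeq2, 0 with all 18 libraries, copies summed or the replicate block, and 0 to 1 with a library left out. The shares of counts moved by less than 1 SD with another denominator.

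All changes of sign concerned values without a call. In AngioTag IP against RiboTag IP, fetub was at 0.01 with DESeq2, median-of-ratios scaling or no filter, 0.02 with all 18 libraries and -0.46 to 0.22 with a library left out. In the AngioTag and RiboTag difference it was at 0.04 with DESeq2 or median-of-ratios scaling, 0.05 with all 18 libraries, 0.01 with no filter and -0.45 to 0.18 with a library left out, and apoa1b ran from -0.07 to 0.41. In the sorting and AngioTag difference, apoa1b was at -0.00 with all 18 libraries and -0.42 to 0.34 with a library left out, apoa4b.3 at 0.07 with DESeq2 or median-of-ratios scaling and -2.08 to 1.38, apobb.1 at 0.10 with copies summed and -1.60 to 0.23, fetub ran from -1.20 to 0.09, and tfa was at -0.06 with the replicate block and -1.13 to 0.77. In FACS sorted, tfa ran from -1.66 to 0.12 with a library left out. Between the inputs, fetub was at -0.01 with no filter and ran from -0.14 to 0.11, and tfa from -0.06 to 0.35.

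Over all genes, RiboTag IP against its input gave 90 lower and 127 higher genes, but 656 and 919 with DESeq2, 439 and 374 with all 18 libraries and 1268 and 1306 with the replicate block. The inputs gave 151 and 156, but 747 and 863 with DESeq2, 282 and 280 with no filter, 112 and 68 with the replicate block and 1 and 5 with all 18 libraries. The AngioTag and RiboTag difference gave 672 and 850, but 1147 and 1373 with DESeq2, 1484 and 1495 with the replicate block and 306 and 835 with all 18 libraries. The pull-downs gave 1498 and 1685, but 2096 and 2297 with DESeq2 and 2973 and 3052 with all 18 libraries. FACS sorted against FACS total gave 2868 and 2678, but 3141 and 3371 with DESeq2 and 3526 and 3037 with all 18 libraries. FACS total against AngioTag input gave 4075 lower genes, but 2488 with all 18 libraries, and the sorting difference 605 and 1031, but 924 and 2154 with DESeq2.

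The replicate block changed no other call of the 8 genes beyond these and those given with the comparisons. Numbers did not pair the sorting libraries (r = 0.417, -0.002 and 0.173) or the inputs (0.236, -0.404 and -0.160), or FACS total with AngioTag input (0.021, -0.202 and -0.135). Counts behind the sorting comparison were low, with 26 to 739 a group for the 6 of 8 genes tested, in libraries of 18.3 to 45.5 M counts. A copy's own level is taken as less certain than the sum over its family.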
